A study of Mus musculus with 6 samples.

Results

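The CXCR3 ligands Cxcl9, Cxcl10 and Cxcl11 were followed in 4T1 tumour cells that had been cultured with macrophages. They were the rows of the deposited table whose gene symbol equalled 1 of these 3 names. Each name had exactly 1 transcript cluster, the gene-level probe set of the array, so 3 genes on 3 clusters were described out of 23385 genes tested on 41345 clusters. 4T1 is a mouse mammary carcinoma line that the labels describe as negative for the oestrogen receptor, the progesterone receptor and HER2. It was cultured for 24 h with bone marrow-derived mouse macrophages polarised beforehand to a pro-inflammatory (PI) state in 3 samples or to an anti-inflammatory (AI) state in 3 samples. Per the labels' protocols, macrophages were then depleted with CD11b microbeads, and RNA of the tumour cells that passed through was hybridised to 1 array per sample. Each replicate used macrophages of an individual mouse, the 4T1 cells were the same line throughout, and tumour cells without macrophages were not analysed here. The sources used here name neither the polarising agents nor the strain and age of the mice.

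CXCL9 (also called MIG), CXCL10 (IP-10) and CXCL11 (I-TAC) are small secreted chemokines without the ELR motif, and they share the receptor CXCR3, which is carried by activated T cells and natural killer cells. All are known as interferon-induced genes. Cxcl9 depends mainly on interferon-gamma, whereas Cxcl10 also responds to type I interferon and to NF-kB. The C57BL/6 allele of Cxcl11 is known not to give the protein, and the RefSeq gene table of assembly GRCm38.p6, which is a C57BL/6J genome, lists Cxcl11 as a transcribed pseudogene. 4T1 was derived from a BALB/c background, so the array reports a transcript of Cxcl11 here and says nothing of the protein.

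The promoters of Cxcl9 and Cxcl10 are shown first, because these genes lie close together on chromosome 5 and yet had different values in the co-cultures. The table of RefSeq promoters, build GRCm38.p6, held 2 of the 3 ligands. Each window runs 5′ to 3′ on the minus strand from 250 bases before the annotated start to 50 bases after it, at chr5:92328030-92328329 for Cxcl9 and chr5:92348840-92349139 for Cxcl10. Capitals mark matches to any of 3 motifs searched on both strands, which were the interferon-stimulated response element (ISRE: GAAA, any 2 bases, GAAA), the STAT-binding GAS element (TTC, any 3 bases, GAA) and the NF-kB site (kB: GGGA, any 4 bases, CC).
Cxcl9: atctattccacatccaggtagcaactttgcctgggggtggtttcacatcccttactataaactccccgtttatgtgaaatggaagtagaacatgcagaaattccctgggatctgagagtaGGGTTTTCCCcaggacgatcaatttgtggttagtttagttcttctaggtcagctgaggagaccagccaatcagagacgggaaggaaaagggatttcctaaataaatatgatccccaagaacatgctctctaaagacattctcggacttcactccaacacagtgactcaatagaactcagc
Cxcl10: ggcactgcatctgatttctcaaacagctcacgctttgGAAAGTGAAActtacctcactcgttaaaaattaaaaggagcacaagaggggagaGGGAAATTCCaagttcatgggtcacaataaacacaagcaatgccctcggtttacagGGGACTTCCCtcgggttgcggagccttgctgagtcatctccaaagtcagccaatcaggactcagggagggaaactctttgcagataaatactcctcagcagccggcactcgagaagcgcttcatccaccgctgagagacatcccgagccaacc
The Cxcl10 window held an ISRE match, GAAAGTGAAA, from 213 to 204 bases before the start, and kB matches at GGGAAATTCC, from 159 to 150 bases before it, and at GGGACTTCCC, from 103 to 94 bases before it. The last of these matched on both strands and overlapped itself. The Cxcl9 window held a single match, kB on the opposite strand at GGGTTTTCCC, from 130 to 121 bases before the start, and neither window held a GAS match. Of 32851 promoter windows of the same length in the table, 3.44% held the ISRE letters, 8.30% the GAS letters and 20.73% the kB letters. A match is a description of letters and not of a bound site, and elements spelled otherwise, such as the interferon-gamma response element known from the mouse Cxcl9 promoter, were not searched for.

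Cxcl9 was the ligand that rose, where a rise or fall means a higher or lower level in PI than in AI. Its RMA level, on the log2 scale, was 4.27, 4.90 and 4.18 in AI replicates 1, 2 and 3 and 6.56, 6.91 and 7.36 in PI replicates 1, 2 and 3. Every PI array lay above every AI array, and the lowest PI value exceeded the highest AI value although the arrays spread over 0.72 within AI and 0.80 within PI. The mean was 4.45 ± 0.39 in AI and 6.94 ± 0.40 in PI (SD, n = 3 each), a log2 difference of 2.50 with a 95% interval of 1.92 to 3.07. This was a 5.64-fold higher level in PI (95% interval 3.79 to 8.40; limma adjusted p = 0.0208 over 23385 genes), and the difference was the second largest of all genes tested. The share of genes called higher in PI by limma at an adjusted p of 0.05 was 0.0727%, and the share whose 3 PI arrays all lay above the 3 AI arrays was 5.85%. The call was lost without PI replicate 2 (adjusted p = 0.145), PI replicate 3 (0.0963), AI replicate 1 (0.103) or AI replicate 3 (0.0937), with values of 2.29 to 2.72 over all 6 omissions. It was also lost when all clusters were tested together (adjusted p = 0.107) and in an unmoderated test (adjusted p = 0.441), and the authors' deposited table gave Cxcl9 a q-value of 0.494.

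Cxcl10 had nearly equal levels in both co-cultures. Its values were 7.17, 6.96 and 6.98 in AI replicates 1, 2 and 3 and 6.99, 7.37 and 7.18 in PI replicates 1, 2 and 3. The groups overlapped, since PI replicate 1 lay below AI replicate 1 and close to the other AI arrays. The means were 7.04 ± 0.11 in AI and 7.18 ± 0.19 in PI (SD, n = 3 each), a log2 difference of 0.14 that did not pass the test (limma adjusted p = 0.830). The 95% interval ran from -0.13 to 0.42 on the log2 scale, or from 0.913-fold to 1.34-fold, so a rise of the size seen for Cxcl9 lay outside it. Leaving out each array in turn gave values of 0.05 to 0.24.

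Cxcl11 lay between the other ligands in its difference and did not pass the test. Its values were 5.44, 5.77 and 5.93 in AI replicates 1, 2 and 3 and 5.89, 6.28 and 6.64 in PI replicates 1, 2 and 3. The groups overlapped by a narrow margin, with PI replicate 1 below AI replicate 3 and the remaining PI arrays above all AI arrays. The means were 5.71 ± 0.25 in AI and 6.27 ± 0.37 in PI (SD, n = 3 each), a 1.47-fold ratio with a 95% interval of 1.06 to 2.04 (limma unadjusted p = 0.0261, adjusted p = 0.639). Of all genes tested, 4.05% were higher in PI at an unadjusted p under 0.05. Ranked by log2 difference from the most positive, Cxcl11 (0.56) stood at place 140 of 23385 genes and Cxcl10 (0.14) at place 3589.

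**Figure D1:**
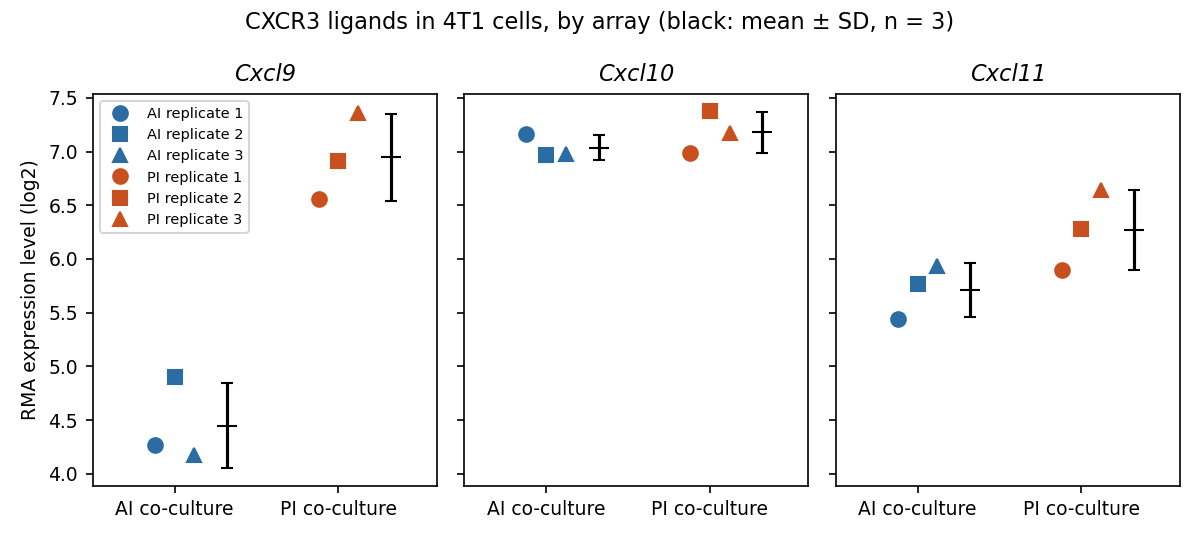
RMA expression level (log2) of Cxcl9, Cxcl10 and Cxcl11 on each of the 3 AI (blue) and 3 PI (orange) arrays, with marker shape for the replicate number and black bars for the mean ± SD. The groups are apart for Cxcl9 and overlap for Cxcl10 and Cxcl11, and levels of different genes share no scale because each has its own probes.

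Each PI array was also set against the AI mean of the same gene. Cxcl9 stood 2.11, 2.46 and 2.91 above its AI mean in PI replicates 1, 2 and 3, whereas Cxcl11 stood 0.18, 0.56 and 0.93 above its own. PI replicate 3 was the highest and PI replicate 1 the lowest for both genes. Cxcl10 differed from its AI mean by -0.05, 0.34 and 0.14, with PI replicate 2 the highest. Within AI the order was not shared, as AI replicate 2 was the highest for Cxcl9, AI replicate 3 for Cxcl11 and AI replicate 1 for Cxcl10.

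Whether the ligands changed by different amounts was tested on the log2 difference between a pair of ligands within each array, in which any shift common to both cancels. For Cxcl9 minus Cxcl10 it was -2.90, -2.06 and -2.80 in the AI arrays and -0.43, -0.46 and 0.19 in the PI arrays, so that the change of Cxcl9 exceeded that of Cxcl10 by 2.35. For Cxcl9 minus Cxcl11 it was -1.17, -0.87 and -1.76 in AI and 0.67, 0.64 and 0.72 in PI, an excess of 1.94. In both cases all PI arrays lay above all AI arrays, with a two-sided exact permutation p of 0.10 each, the smallest that 3 against 3 arrays can give. Adjusted over the 3 pairs compared, these p-values were 0.15 by the Benjamini-Hochberg method. For Cxcl10 minus Cxcl11 it was 1.73, 1.19 and 1.04 in AI and 1.09, 1.10 and 0.53 in PI, a difference of -0.41 with overlapping groups (exact permutation p = 0.30, also 0.30 after adjustment). The difference between Cxcl9 and Cxcl11 had an SD of 0.04 over the PI arrays and 0.45 over the AI arrays (n = 3 each). Leaving out any array kept the excess of Cxcl9 between 2.14 and 2.61 over Cxcl10 and between 1.69 and 2.14 over Cxcl11.

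The signal in AI differed between the probe sets. The AI mean of Cxcl9 stood at percentile 47.2 of all genes tested, that of Cxcl11 at percentile 59.7 and that of Cxcl10 at percentile 72.1. In PI they stood at percentiles 71.5, 64.9 and 73.9. The ligand with the lowest AI signal thus had the largest difference and the ligand with the highest AI signal the smallest. These percentiles place signals on the array and do not order the amounts of the 3 transcripts, since each probe set has its own response. Of the 17 genes that passed the test, all higher in PI, 11 had an AI mean above the 7.04 of Cxcl10, and their PI means reached 10.43 on arrays whose highest value was 13.89. These are other probe sets, and whether the level of Cxcl10 limited its difference was not tested.

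**Figure D2:**
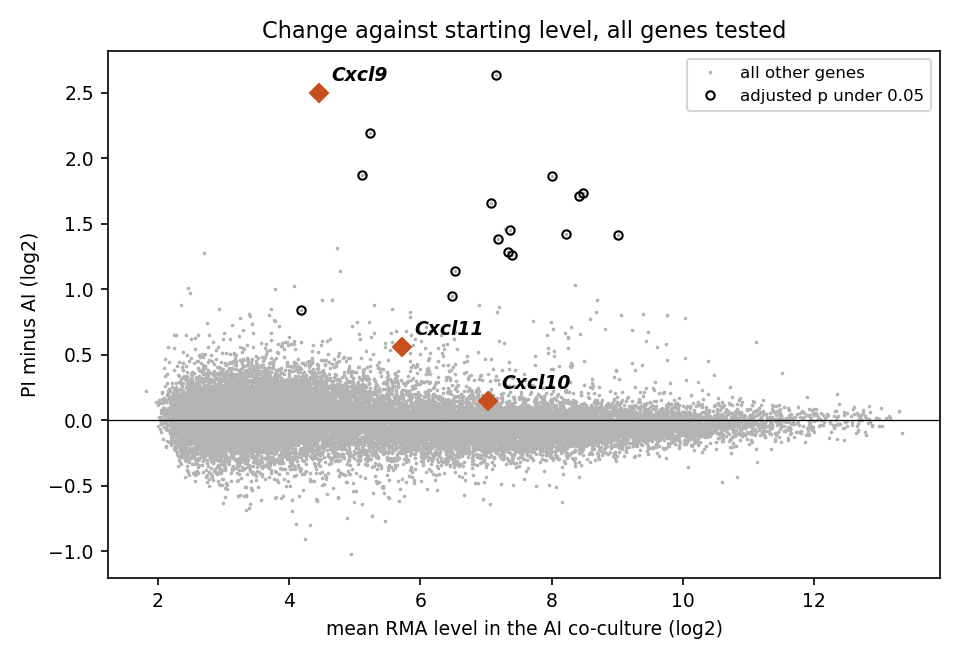
Log2 difference PI minus AI against the mean RMA level (log2) in the AI co-culture for all 23385 genes tested (grey), with the 17 genes past an adjusted p of 0.05 circled and the 3 ligands marked by orange diamonds. Cxcl9 is circled beneath its diamond at 2.50, and Cxcl10, at 0.14, lies within the band of grey points, while circled genes appear on both sides of its AI level.

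The profile of each ligand over the 6 arrays was compared with those of all other genes by the root mean square distance between log2 values centred on each gene's own mean, leaving out predicted genes. The nearest to Cxcl9 were Iigp1 at a distance of 0.37, Gbp4 at 0.40, Psmb9 at 0.45 and Igtp at 0.49, with Pearson correlations of 0.96, 0.98, 0.99 and 0.95 over the 6 arrays. Iigp1 and Igtp encode interferon-inducible immunity-related GTPases, Gbp4 a guanylate-binding protein and Psmb9 an immunoproteasome subunit. Their log2 differences were 2.64, 1.87, 1.71 and 1.86, and all 4 passed the test, where 0.0727% of all genes were called higher. Genes chosen for nearness to Cxcl9 share its difference between groups, so that they passed is no separate result. The nearest to Cxcl11 were Ifit3, an interferon-stimulated antiviral gene, at 0.12, Mir466b-3 and Olfr1356, an olfactory receptor gene, at 0.13 each, and Sp110, an interferon-inducible nuclear body protein, at 0.13. Their log2 differences were 0.57, 0.43, 0.44 and 0.52, none past the test. The nearest to Cxcl10 were Ido1, a tryptophan-degrading enzyme, at 0.02, Cfd, which encodes complement factor D, at 0.03, Rab29, a small GTPase, at 0.03 and Mir34c at 0.03, with log2 differences of 0.14, 0.18, 0.09 and 0.11, none past the test. Within a distance of 0.15 lay 4068 of these genes for Cxcl10, 7 for Cxcl11 and 0 for Cxcl9, whose own profiles had SDs of 0.15, 0.38 and 1.29. Among the ligands themselves, the distance was 1.22 between Cxcl9 and Cxcl10, 1.004 between Cxcl9 and Cxcl11 and 0.35 between Cxcl10 and Cxcl11. Likeness over these 6 arrays mixes the difference between groups with the spread between arrays and is given as a description.

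Genes that receive or modify the ligands had no called difference. Of 5 measured, 0 rose and 0 fell, where 0.0727% of all genes were called higher and 0% lower. The median log2 difference of the 5 was 0.06 against -0.01 over all genes tested. The receptor gene Cxcr3 had levels of 5.574, 5.598 and 5.550 in AI and 5.78, 5.54 and 5.65 in PI, with overlapping groups and a difference of 0.08. Ackr3, which encodes an atypical receptor that also binds CXCL11, had a value of 0.03, and Dpp4, whose protease trims the amino ends of these chemokines, a value of 0.06. Sdc4, a heparan sulphate proteoglycan, had a value of 0.07 and Pf4, a chemokine reported to act on a CXCR3 splice form in humans, a value of -0.01. The AI signals of Dpp4 and Pf4 were low, at percentiles 21.8 and 24.1 of all genes tested. The smallest limma adjusted p among the 5 was 0.860.

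The interferon-gamma arm held a single called gene. Among 10 measured members there was 1 rise and no fall, where 0.0727% of all genes were called higher, and the median was -0.03. The cytokine gene Ifng had levels of 3.48, 3.75 and 3.45 in AI and 3.45, 3.47 and 3.27 in PI, with overlapping groups and a difference of -0.17. Its receptor chains Ifngr1 and Ifngr2 had values of -0.16 and -0.19, not past the test, and Ifngr2 had all PI arrays below all AI arrays. Irf1, a transcription factor that interferon-gamma induces, had levels of 6.84, 7.05 and 6.80 in AI and 7.67, 7.73 and 7.92 in PI. Its groups did not overlap, as for 5.85% of all genes in this direction, and its difference was 0.87 with a 95% interval of 0.63 to 1.12, just outside the threshold (limma adjusted p = 0.0541). Socs1, a feedback inhibitor of JAK kinases, had a value of 0.22. Of the 10 members, 2 had all PI arrays above all AI arrays and 3 had all below. Over all genes tested these shares were 5.85% and 7.32%.

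In the type I interferon arm 0 of 9 measured members passed, where 0.0727% of all genes were called higher, with a median of 0.10. Stat2, a subunit of the ISGF3 complex that binds the ISRE, had levels of 8.45, 8.15 and 8.45 in AI and 9.36, 9.17 and 9.60 in PI. These groups did not overlap, and the difference was 1.03 (limma adjusted p = 0.0710). Irf7, which amplifies type I interferon production, had a value of 0.83 (adjusted p = 0.333) and Usp18, which removes ISG15 and dampens interferon signalling, a value of 0.42 (adjusted p = 0.447), both without overlap. All PI arrays lay above all AI arrays in 3 of the 9 members, against 5.85% of all genes tested. Irf9, the DNA-binding subunit of ISGF3, had a value of 0.25, and Ifnb1, which encodes interferon-beta, a value of -0.17 with overlapping groups. The AI signal of Ifnb1 was low, at percentile 11.3 of all genes tested.

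In the NF-kB and TNF arm 0 of 14 measured members passed, where 0.0727% of all genes were called higher and 0% lower. Of the 14, 11 had negative values, as did 12316 of 23385 genes tested, and the median was -0.04. The subunit genes Nfkb1 and Rela had values of -0.03 and -0.05. Nfkb2, the non-canonical subunit gene, had the smallest p of this arm, with a value of -0.28 and all PI arrays below all AI arrays, as for 7.32% of all genes tested (limma adjusted p = 0.584). Rel had a value of -0.23, the cytokine gene Il1b a value of 0.25 and Tnfaip3, which encodes the inhibitor A20, a value of -0.16, all with overlapping groups.

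**Figure D3:**
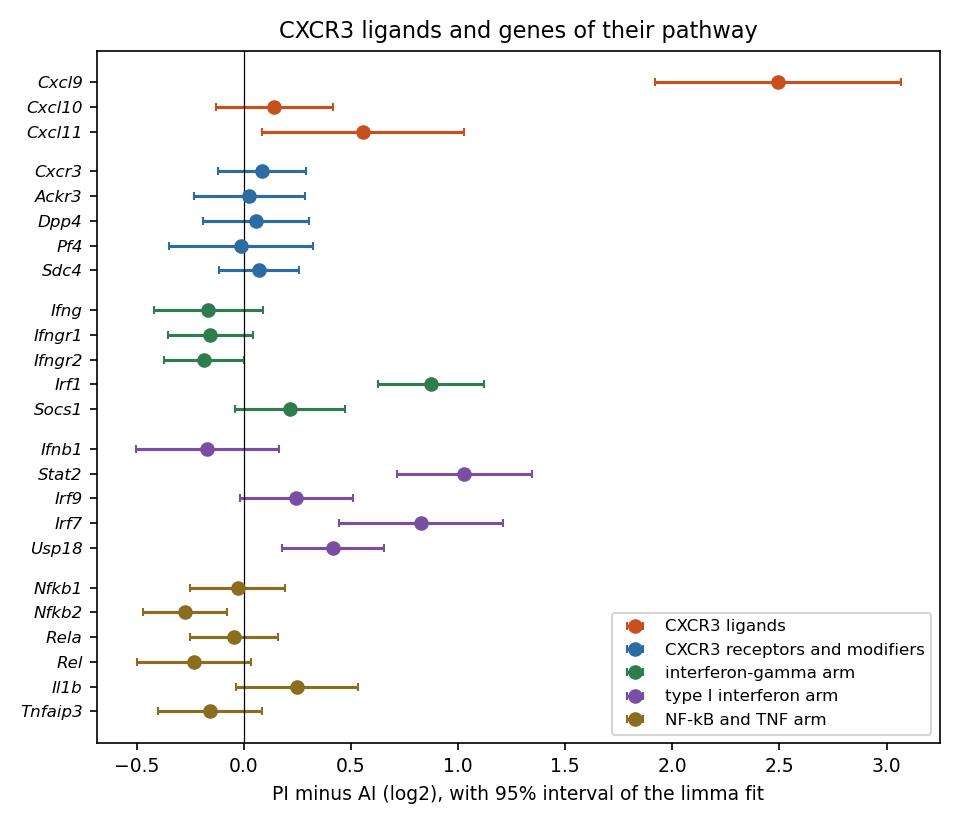
Log2 difference PI minus AI with its 95% interval from the limma fit for the 3 ligands and 21 genes of their pathway, coloured by list. Cxcl9, at 2.50, stands apart, Stat2 (1.03), Irf1 (0.87) and Irf7 (0.83) follow, and the receptors, modifiers and NF-kB genes lie between -0.28 and 0.25.

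Of 11 other chemokines of the CXC family measured, 0 passed, where 0.0727% of all genes were called higher, with a median of -0.05 and values from -0.25 for the B cell chemokine Cxcl13 to 0.42 for the neutrophil chemokine Cxcl2 (limma adjusted p = 0.735 and 0.504). All PI arrays lay above all AI arrays for Cxcl2, as for 5.85% of all genes tested. Cxcl3 and Cxcl1, also neutrophil chemokines, had values of 0.41 and -0.20.

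The genes around the ligands on chromosome 5 were examined for a change of the whole region. In the RefSeq table the order was Ppef2, Naaa, Sdad1, Cxcl9, Art3, Cxcl10, Cxcl11, Nup54, Scarb2 and Fam47e, counting protein-coding neighbours and the ligands, and the annotated span of Art3 contains Cxcl10 and Cxcl11. Sdad1, a gene of ribosome biogenesis next to Cxcl9, had a log2 difference of -0.07, and Art3, an ADP-ribosyltransferase family gene whose annotated start coordinate follows Cxcl9, a difference of -0.05. Nup54, a nuclear pore gene after Cxcl11, had a difference of 0.00. Scarb2, a lysosomal membrane protein gene, had -0.16, Naaa, a lysosomal amidase gene, -0.18, Ppef2, a phosphatase gene, -0.02 and Fam47e 0.05. Of these 7 neighbours 0 passed the test, where 0.0727% of all genes were called higher and 0% lower. None had all PI arrays above all AI arrays, against 5.85% of all genes tested. Naaa had all PI arrays below all AI arrays, as for 7.32% of all genes tested. Art3 was added to the neighbours after its position was seen.

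**Figure D4:**
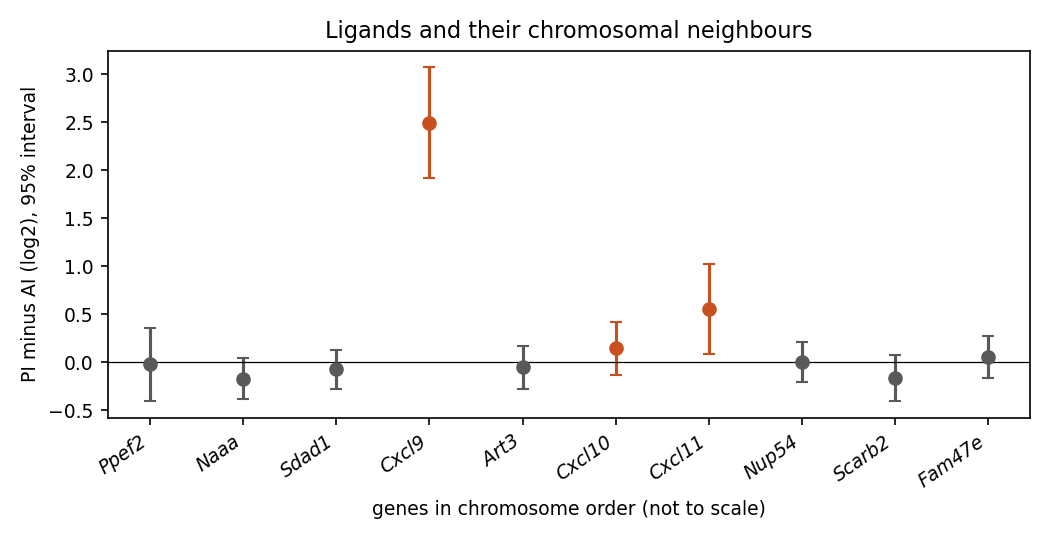
Log2 difference PI minus AI with its 95% interval for the 3 ligands (orange) and their 7 protein-coding neighbours (grey) in chromosome order, not to scale. The neighbours lie between -0.18 and 0.05, with Cxcl9 at 2.50.

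Macrophages can make these chemokines, so markers of cells that the fraction could hold were set beside the ligands. In bulk RNA, fewer cells of a type and less RNA per cell cannot be told apart. Of 22 macrophage markers 0 passed, where 0.0727% of all genes were called higher and 0% lower. The median log2 difference was 0.02. The mean level over the list was 4.22 to 4.26 in the AI arrays and 4.26 to 4.33 in the PI arrays. The depletion target Itgam had a value of 0.01, Cd68 0.03, Adgre1 0.00, Csf1r -0.10, Ptprc -0.21 and Lyz2 0.19. In the same order, their AI means stood at percentiles 14.5, 76.3, 34.4, 29.1, 25.4 and 27.5 of all genes tested. At a low signal a value near 0 does not show equal macrophage content. Mpeg1, a perforin-like macrophage gene, had the smallest p of the list, with levels of 4.30, 3.95 and 3.84 in AI and 4.45, 4.54 and 4.83 in PI (difference 0.58, limma adjusted p = 0.476). Of the 22, Mpeg1 alone had all PI arrays above all AI arrays, while Cd14, a co-receptor for lipopolysaccharide (-0.23), and Spi1, which encodes the myeloid factor PU.1 (-0.21), had all PI arrays below. Over all genes tested these shares were 5.85% above and 7.32% below. Of 15 pro-inflammatory macrophage markers 1 rose, Nos2, the inducible nitric oxide synthase, at 0.95, against 0.0727% of all genes called higher. Positive values were found in 14 of the 15, where 11069 of 23385 genes tested were positive. The median log2 difference of these markers was 0.14, against -0.01 over all genes tested. The mean level over that list was 4.61 to 4.75 in AI and 4.78 to 4.96 in PI, without overlap. When Nos2 was left out, a choice made after its value was seen, it was 4.47 to 4.62 and 4.59 to 4.79, with overlap. Of those 14 markers 13 had positive values, with a median of 0.12. Of 12 anti-inflammatory macrophage markers 0 passed, with a value of -1.02 for Ccl22, a chemokine for regulatory T cells. Levels of Ccl22 were 4.80, 4.53 and 5.48 in AI against 4.02, 3.82 and 3.91 in PI, without overlap. This was the most negative difference among all genes tested (limma adjusted p = 0.392). The part of remaining macrophages in the rise of Cxcl9 was not tested. None of these markers was at 0, since an array gives a signal to every probe set.

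The tumour fraction carried its epithelial genes. The keratin genes Krt8 and Krt18 had AI means of 10.81 and 11.11, at percentiles 98.2 and 98.7 of all genes. Of 10 epithelial markers 0 passed, where 0.0727% of all genes were called higher and 0% lower. Of the 10, 7 had negative values, as did 12316 of 23385 genes tested. The median log2 difference was -0.17, with values of -0.41 for Krt14, -0.19 for Epcam, an epithelial adhesion molecule, and -0.11 for Krt8. In these 3 markers all PI arrays lay below all AI arrays, as for 7.32% of all genes tested. The part of these values in the result for Cxcl9 was not tested. T and NK cell markers (10 measured), neutrophil markers (10) and dendritic cell markers (7) had 0 genes past the test, with medians of -0.02, 0.07 and 0.03. The neutrophil marker with the smallest p, S100a8, a calgranulin gene, had a value of 0.45 (limma adjusted p = 0.346).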

How the data were processed

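Total RNA of 6 tumour fractions was measured on Affymetrix arrays. Per the submitters' processing notes, the authors used Affymetrix Expression Console and RMA, without stated versions, which corrects background, normalises arrays to a shared distribution and summarises probes. The deposited values are log2 levels per transcript cluster, from 1.33 to 13.89, and both deposited tables held the same values (0 differing by more than 1e-09). A deposited table adds p-value, q-value and fold columns, per the file headers, from a test that is not stated; the fold was AI over PI for 41345 of 41345 clusters within 1%. The genome build behind the array annotation is not given in the sources used here. Unused columns of per-sample values numbered 0.

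Clusters with 1 symbol (24724) were renamed through the Entrez identifier with the RefSeq table of GRCm38.p6, which held 23652 of them, and each of 23385 genes was represented by the cluster of highest mean. The groups were compared in limma 3.58.1 (R 4.3.3; lmFit, then eBayes) with group as the only term and dim genes kept, and Benjamini-Hochberg adjustment of two-sided p-values ran over all genes, with a threshold of 0.05. The fit was tested on simulated data. Pairs of ligands were compared by exact permutation. Other steps used scipy 1.17.1, pandas 2.3.3, numpy 2.4.6 and matplotlib 3.10.9 under Python 3.11.15.

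The members, gene lists, tests and alternatives were chosen with earlier results of these data known, and the motifs after the promoters were seen. Named genes were the ligands, fixed pathway and marker genes, list members past the threshold or of smallest p, 4 nearest profiles per ligand, and 3 protein-coding neighbours on either side. Of the genes this rule takes, 1 counts in every total but is not reported here. The number of arrays limits the precision. Replicates differ in the mouse that gave the macrophages. Array-to-array correlations over all clusters were 0.987 to 0.990. No source says that equal replicate numbers share a mouse, so no pairing was assumed. Deviations from the group means correlated at 0.037, -0.019 and 0.044 for arrays of equal number. For arrays of unequal number the correlations ran from -0.089 to 0.059. Taken over all clusters, these values cannot show whether equal numbers share a mouse.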

Additional observations from a re-analysis of the deposited data

How the results depend on the processing

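Cxcl9 stayed higher in PI under all 14 alternatives run, with log2 differences of 2.29 to 2.72 and adjusted p-values from 0.000292 to 0.441. It passed in 7 of them and did not pass in the unmoderated test (2.50, adjusted p = 0.441), with the replicate block (2.50, adjusted p = 0.118), with all transcript clusters tested (2.50, adjusted p = 0.107) and in 4 of the 6 fits that left out an array (range over the 6 of 2.29 to 2.72). Cxcl10 (0.05 to 0.24) and Cxcl11 (0.37 to 0.74) passed in 0 of 14, and their sign did not change. The differences between the ligands' changes kept their sign in all 8 alternatives each, at 2.14 to 2.61 for Cxcl9 minus Cxcl10, 1.69 to 2.14 for Cxcl9 minus Cxcl11 and -0.55 to -0.21 for Cxcl10 minus Cxcl11, and moved by less than the larger of the PI and AI SDs. The last was -0.23 without PI replicate 3 and -0.21 without AI replicate 1, against -0.41 with all arrays. The count of 17 genes became 42 (40 higher, 2 lower) when dim genes, at or below the median level, were left out, 76 (69 higher, 7 lower) with an intensity trend and robust variance, 2 (both lower) in the unmoderated test, 1 with the replicate block, 8 with all clusters tested, and 1 to 14 when an array was left out, with fewer samples. Omitting PI replicate 2 gave 1 gene, omitting PI replicate 3 gave 4, and omitting AI replicate 1 gave 7, all among the 17, and omitting AI replicate 3 gave 7, of which 6 were among the 17. Why the count of genes moved between these settings was not tested. The replicate block rests on numbers that were not shown to pair the arrays; under it Cxcl11 kept its difference of 0.56 with an unadjusted p of 0.00134 and an adjusted p of 0.449. Centring the arrays moved the median difference of all genes from -0.01 to -0.05. Each ligand had 1 cluster, so averaging clusters left its values as they were.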
